A study of Mus musculus with 6 samples.

Results

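Glucocorticoid-responsive genes were followed in calf muscle of aged mice by 6 genes taken by name: Nr3c1, which encodes the glucocorticoid receptor, and Fkbp5, Tsc22d3, Klf15, Zbtb16 and Sgk1, whose transcription the receptor is known to raise. The table held 26294 genes, and all 6 were in it with reads in every library. The 6 were chosen with earlier results of these data known, so their counts beside all genes are a description and not independent support. No hormone level was in the data used here and no animal was labelled as given a glucocorticoid, so the name of the group rests on textbook knowledge.

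RNA-seq had been run on 6 libraries of mixed calf muscle (gastrocnemius and soleus) from male C57BL/6 mice aged 24 to 26 months. The mice had been on their diet for 5 to 6 months. RD was a regular diet, HF a high-fat diet, and HF.NOB the high-fat diet with 0.1% nobiletin, a citrus flavonoid known as an agonist of the ROR nuclear receptors of the clock. Muscle was taken at zeitgeber time 6 (ZT6), in the light, when mice rest, or at ZT18, in the dark, when they are active. Each of the 6 conditions had 1 library, and nobiletin was given with the high-fat diet only among these libraries. The labels do not say how many mice a library came from, and the study's legend for its sequencing data speaks of replicates, so whether a library is 1 mouse or a pool is not settled here.

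Glucocorticoids, mainly corticosterone in mice, are adrenal hormones that are released in a daily rhythm and under stress. Inside the cell they bind the receptor, which leaves its heat shock protein complex, enters the nucleus, binds response elements in DNA and raises or lowers transcription nearby. In muscle they are known for a catabolic programme, with breakdown of protein and amino acids and less uptake of glucose. Some of the genes they raise, Fkbp5 among them, act back on the hormone signal.

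The values were read counts multiplied by 1 factor per library, here called scaled read counts, and whole reads came back for 100% of them within 0.001. A library held between 23248663 and 31837501 reads assigned to genes. Intervals on folds are 95% exact intervals that cover counting error only, and nothing in the design measures the spread between mice of a group. The ZT6 HF.NOB library stood apart: its folds against other libraries followed transcript length, with a Spearman correlation over 11160 protein-coding genes of -0.73 against ZT6 HF, -0.70 against ZT6 RD and 0.72 for ZT18 HF.NOB against it. In the comparisons without that library the correlation lay between -0.00205 and 0.101. Beside member results that use it, a length-adjusted fold is therefore given, from which the median fold of genes near in length was taken off. All 7 skeletal muscle markers had reads in every library. The summed level of 5 red cell markers was 14519 in ZT6 HF.NOB and 1575 to 5429 in the others. That of 6 adipocyte markers was 5536 in ZT6 HF.NOB, 2261 to 3088 in the other HF and HF.NOB libraries and 1324 to 1386 in RD. That of 7 liver markers was 1464 in ZT18 HF and 7.92 in ZT18 RD, and 4 to 6 of those markers were at 0 in each library other than ZT18 HF. The sums are not adjusted for length. For ZT6 HF.NOB against ZT6 RD, the median log2 fold was 1.62 for red cell markers, or 0.83 after length adjustment. For adipocyte markers it was 2.12, or 1.57. Against ZT6 HF the medians were 3.30, or 2.44, for red cell markers and 0.79, or 0.30, for adipocyte markers. The clock gene Dbp, known to peak in the light phase, stood at 1878 to 2234 at ZT6 and at 304 to 398 at ZT18.

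Promoter windows are shown because the receptor acts through one short element and the daily clock through others. RefSeq windows (GRCm38.p6, 250 bases before to 50 after an annotated start) were searched on both strands for 4 motifs. These were AGAACA, the core of the glucocorticoid response element, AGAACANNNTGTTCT, the full element, which holds that core on each strand, CACGTG, the E-box bound by CLOCK and BMAL1, and AGGTCA, bound by ROR and REV-ERB receptors. Windows of 4 of the 6 genes were searched, and Zbtb16 and Nr3c1 are not shown. Capitals mark the letters of any of these motifs, 5′ to 3′ on the strand of the gene.
Sgk1, chr10:21993640-21993939, plus strand: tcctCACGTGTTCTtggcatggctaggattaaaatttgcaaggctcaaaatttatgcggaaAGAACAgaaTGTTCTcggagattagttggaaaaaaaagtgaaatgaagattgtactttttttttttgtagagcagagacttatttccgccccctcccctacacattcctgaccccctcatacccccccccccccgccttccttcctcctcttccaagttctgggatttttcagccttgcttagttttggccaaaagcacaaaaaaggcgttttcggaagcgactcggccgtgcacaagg
Klf15, chr6:90462326-90462625, plus strand: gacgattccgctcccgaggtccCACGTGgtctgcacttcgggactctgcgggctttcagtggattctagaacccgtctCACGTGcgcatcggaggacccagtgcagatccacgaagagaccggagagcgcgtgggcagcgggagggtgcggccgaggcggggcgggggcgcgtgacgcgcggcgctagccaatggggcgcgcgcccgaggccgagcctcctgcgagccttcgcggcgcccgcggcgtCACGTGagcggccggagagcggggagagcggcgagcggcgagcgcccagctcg
Fkbp5, chr17:28486100-28486399, minus strand: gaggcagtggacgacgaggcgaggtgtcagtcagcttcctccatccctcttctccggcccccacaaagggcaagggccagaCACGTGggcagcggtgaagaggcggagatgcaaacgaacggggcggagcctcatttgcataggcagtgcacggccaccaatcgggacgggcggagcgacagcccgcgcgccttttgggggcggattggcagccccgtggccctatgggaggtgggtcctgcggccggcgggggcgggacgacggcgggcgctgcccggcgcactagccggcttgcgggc
Tsc22d3, chrX:140600473-140600772, minus strand: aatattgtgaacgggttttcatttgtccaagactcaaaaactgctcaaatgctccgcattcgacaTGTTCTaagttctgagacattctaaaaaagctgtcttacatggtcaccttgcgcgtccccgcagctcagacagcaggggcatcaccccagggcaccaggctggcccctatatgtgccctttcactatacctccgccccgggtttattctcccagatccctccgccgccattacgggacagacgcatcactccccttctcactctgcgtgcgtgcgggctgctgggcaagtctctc
The Sgk1 window, 1 of 6 for that gene, held the full element from base -189, a match found in 3 of 32851 windows of all genes (0.00913%). It also held an E-box at -246 that shares letters with an AGAACA match on the other strand at -242. The Klf15 window held 3 E-boxes, at -228, -172 and -3, and 29 of all windows (0.0883%) held at least 3. The Fkbp5 window held 1 E-box, at -169, and the Tsc22d3 window, 1 of 3 for that gene, held 1 AGAACA match, on the other strand, at -185. Single matches were common, since 7.15% of all windows held an E-box, 19.0% AGAACA and 16.3% AGGTCA. A match describes the letters only, and elements that lie farther from the start are outside these windows.

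Nr3c1, the receptor (chromosome 18, 39410545 to 39519421, minus strand, GRCm38), showed no common direction by diet or by time. It stood at 3159 scaled read counts in RD, 3569 in HF and 2206 with HF.NOB at ZT6, and at 3885 in RD, 3183 in HF and 3635 with HF.NOB at ZT18. The ZT6 HF.NOB library was the lowest, and the other 5 lay close together. From ZT6 to ZT18 the log2 fold was 0.30 (0.22 to 0.37) in RD, -0.16 (-0.24 to -0.09) in HF and 0.72 (0.64 to 0.80) with HF.NOB. The last of these was 0.17 after length adjustment. At ZT6, HF.NOB against HF moved likewise, from -0.69 to -0.15, and Nr3c1 had the longest transcript of the 6 genes (6436 bases). HF against RD was higher at ZT6, at 0.18 (0.10 to 0.25), and lower at ZT18, at -0.29 (-0.36 to -0.22). In order of level, ZT18 HF.NOB and ZT6 HF did not differ beyond counting error, nor did ZT18 HF and ZT6 RD.

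The 13 genes that handle the receptor and its ligand were read beside it. Hsd11b1, the enzyme that regenerates active glucocorticoid from its inert form, stood at 252 in RD, 215 in HF and 316 with HF.NOB at ZT6 and at 342, 326 and 308 at ZT18. It was thus higher at ZT18 in RD and HF, by a log2 fold of 0.44 and 0.60, and in HF.NOB the fold was -0.04, or 0.34 after length adjustment. Hsd11b2, which inactivates glucocorticoids and is known from kidney, had 0 reads in ZT6 RD, which allows up to 3, and stood at no more than 10.7 elsewhere. The mineralocorticoid receptor Nr3c2, which also binds corticosterone, ranged from 285 in ZT6 HF.NOB to 557 in ZT6 HF. Of the chaperones that hold the receptor ready, Fkbp4, Hsp90aa1, Hsp90ab1, Ptges3 and Stip1 had log2 folds between -0.15 and 0.35 by time in RD and HF. H6pd, which supplies the cofactor of Hsd11b1, and the coregulators Ncoa1, Ncoa2 and Ncor1 had log2 folds of 0.79 to 1.29 for ZT18 against ZT6 in HF.NOB, and of -0.08 to 0.17 in RD and HF. After length adjustment the HF.NOB folds were 0.08 to 0.84. Over all 13, the median log2 fold was 0.01 by time in RD, 0.02 in HF, -0.06 for HF against RD at ZT6 and -0.00 at ZT18, where the medians over all genes tested lay between -0.01 and 0.00.

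**Figure D1:**
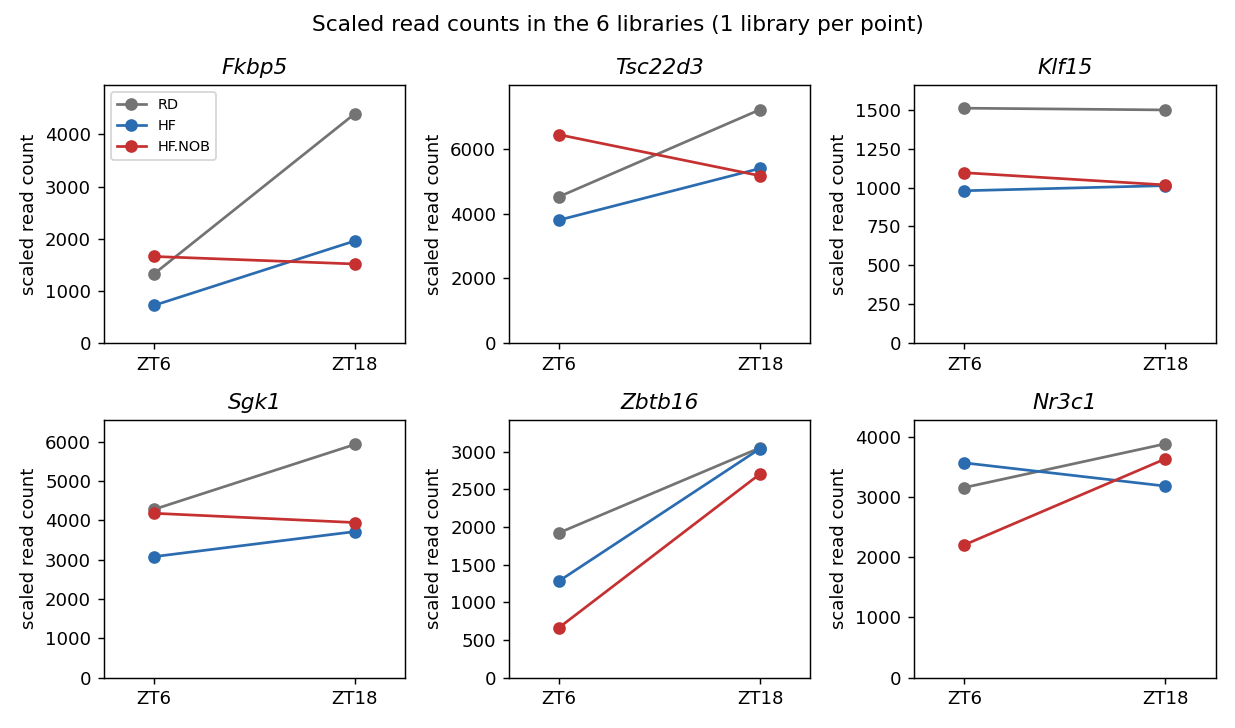
Scaled read counts (y axis, from 0) of the 6 genes at ZT6 and ZT18 (x axis), 1 library per point, with lines joining the libraries of 1 diet (grey RD, blue HF, red HF.NOB). Fkbp5 climbs from 1324 to 4400 in RD and from 720 to 1959 in HF but not in HF.NOB, while Klf15 is flat by time and highest in RD.

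Fkbp5 (chromosome 17, 28399094 to 28517527, minus strand), which encodes a co-chaperone that lowers the receptor's affinity for hormone, had the widest range of the 6 genes. It stood at 1324 in RD, 720 in HF and 1659 with HF.NOB at ZT6, and at 4400 in RD, 1959 in HF and 1515 with HF.NOB at ZT18. The ZT18 RD library was far above all others and the ZT6 HF library far below them, 6.11-fold apart. All 5 neighbours in the order of level differed beyond counting error. By time, Fkbp5 was 3.32-fold higher at ZT18 in RD (log2 1.73, 1.63 to 1.83) and 2.72-fold higher in HF (log2 1.44, 1.32 to 1.57). In HF.NOB the log2 fold was -0.13 (-0.24 to -0.02), or -0.16 after length adjustment, and the ZT6 HF.NOB value lay above the ZT6 values of both other diets. HF lay below RD by a log2 fold of -0.88 (-1.02 to -0.74) at ZT6 and -1.17 (-1.25 to -1.09) at ZT18. HF.NOB lay above HF at ZT6, by 1.20 (1.07 to 1.34), or 1.28 after adjustment, and below HF at ZT18, by -0.37 (-0.47 to -0.27). A small RNA gene on the other strand, Gm22146, overlaps Fkbp5, with a mean of 1.64 scaled read counts, and no other gene in the table overlapped a member.

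Tsc22d3 (chromosome X, 140539528 to 140600659, minus strand) encodes GILZ, a leucine zipper protein through which glucocorticoids restrain inflammatory transcription. It stood at 4526 in RD, 3804 in HF and 6444 with HF.NOB at ZT6, and at 7222 in RD, 5401 in HF and 5173 with HF.NOB at ZT18. As with Fkbp5, the highest library was ZT18 RD and the lowest ZT6 HF, and HF.NOB was the only diet with the lower value at ZT18. The log2 folds by time were 0.67 (0.61 to 0.73) in RD, 0.51 (0.44 to 0.57) in HF and -0.32 (-0.37 to -0.26) with HF.NOB, the last -0.21 after length adjustment. HF against RD gave -0.25 (-0.32 to -0.18) at ZT6 and -0.42 (-0.47 to -0.36) at ZT18. HF.NOB against HF gave 0.76 (0.70 to 0.82) at ZT6, or 0.60 after adjustment, and -0.06 (-0.12 to -0.01) at ZT18. Its family members differed little: Tsc22d1, Tsc22d2 and Tsc22d4 had log2 folds between -0.22 and 0.17 by time in RD and HF and between -0.19 and 0.36 for HF against RD.

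Klf15 (chromosome 6, 90462576 to 90475238, plus strand), a zinc finger factor that drives breakdown of branched-chain amino acids in muscle, was lower in HF and HF.NOB than in RD, and its folds by time lay within counting error. It stood at 1512 in RD, 980 in HF and 1096 with HF.NOB at ZT6, and at 1501 in RD, 1013 in HF and 1018 with HF.NOB at ZT18. Both RD libraries lay above the 4 others. The RD libraries did not differ from each other beyond counting error, nor did neighbours in level among the other 4. HF.NOB did lie above HF at ZT6 beyond counting error, by a log2 fold of 0.16 (0.03 to 0.30), or -0.11 after length adjustment. At ZT18 the same fold was 0.01 (-0.12 to 0.14). The log2 folds by time were -0.01 (-0.13 to 0.10) in RD, 0.05 (-0.08 to 0.18) in HF and -0.11 (-0.24 to 0.03) with HF.NOB. HF against RD was -0.62 (-0.75 to -0.50) at ZT6 and -0.57 (-0.69 to -0.44) at ZT18, and HF.NOB against RD was -0.46 at ZT6 (-0.71 after length adjustment) and -0.56 at ZT18.

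Of 5 enzymes of amino acid breakdown linked to Klf15, Prodh, the first enzyme of proline breakdown, was the one past 1.5-fold. It stood at 267 in RD, 183 in HF and 260 with HF.NOB at ZT6 and at 522, 303 and 260 at ZT18, with the highest library ZT18 RD and the lowest ZT6 HF, as for Fkbp5. The aminotransferase Bcat2 and the dehydrogenase subunit Bckdha, which act on branched-chain amino acids, had log2 folds of -0.30 and 0.08 for HF against RD at ZT6 and of -0.22 and 0.17 at ZT18. The alanine aminotransferases Gpt and Gpt2 had 0.10 and -0.17 at ZT6 and 0.55 and -0.54 at ZT18. Of the other Krüppel-like factors, Klf10 had 0.15 and 1.13 at the same times, Klf2 -0.08 and -0.09, and Klf4 -0.22 and 0.29.

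Zbtb16 (chromosome 9, 48654297 to 48836222, minus strand) encodes PLZF, a zinc finger repressor known as a strongly induced receptor target. It stood at 1923 in RD, 1284 in HF and 665 with HF.NOB at ZT6, and at 3051 in RD, 3040 in HF and 2704 with HF.NOB at ZT18. All 3 ZT18 libraries lay above all 3 ZT6 libraries, and the diets were spread at ZT6 and close together at ZT18, where RD and HF did not differ beyond counting error. The log2 folds by time were 0.67 (0.57 to 0.76) in RD, 1.24 (1.15 to 1.34) in HF and 2.02 (1.89 to 2.16) with HF.NOB, the last 1.73 after length adjustment. Zbtb16 was the only one of the 6 that was higher at ZT18 in every diet, which held for 13.3% of all genes tested. At ZT6, HF against RD was -0.58 (-0.69 to -0.47) and HF.NOB against HF was -0.95 (-1.10 to -0.80), or -0.67 after adjustment. At ZT18 the same folds were -0.01 (-0.08 to 0.07) and -0.17 (-0.25 to -0.09).

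Sgk1 (chromosome 10, 21882184 to 21999903, plus strand), the serum and glucocorticoid regulated kinase, acts on ion channels and on FoxO factors. It stood at 4277 in RD, 3076 in HF and 4178 with HF.NOB at ZT6, and at 5929 in RD, 3713 in HF and 3943 with HF.NOB at ZT18. The highest library was again ZT18 RD and the lowest ZT6 HF, and ZT6 RD and ZT6 HF.NOB did not differ beyond counting error. The log2 folds by time were 0.47 (0.41 to 0.54) in RD, 0.27 (0.20 to 0.34) in HF and -0.08 (-0.15 to -0.02) with HF.NOB, the last 0.01 after length adjustment. HF against RD gave -0.48 (-0.55 to -0.40) at ZT6 and -0.67 (-0.74 to -0.61) at ZT18. HF.NOB against HF gave 0.44 (0.37 to 0.51) at ZT6, or 0.33 after adjustment, and 0.09 (0.02 to 0.15) at ZT18. Its relative Sgk3 ranged from 252 to 341 scaled read counts, and Sgk2 had a mean of 0.599 and was not tested. Its substrates Nedd4l, Ndrg1 and Ndrg2 had log2 folds between -0.07 and 0.13 by time in RD and HF and between -0.26 and -0.07 for HF against RD.

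Per kilobase of the longest annotated transcript, the mean level over the 6 libraries was 1887 scaled read counts for Tsc22d3 and 1352 for Sgk1. It was 509 for Nr3c1, 500.1 for Fkbp5, 478 for Klf15 and 413 for Zbtb16. In these bulk samples fewer cells of a type and less RNA per cell cannot be told apart.

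Across the 6 genes, the RD libraries held the highest values. ZT18 RD was the highest library for 5 of the 6, and ZT6 RD for Klf15. The ZT18 RD library was the highest for 14.0% of the 20311 genes tested, those averaging at least 1 scaled read count. It was so for 15.2% of the 5894 that average at least 500, here called abundant, a range of level that all 6 members share. HF lay below RD at both times in 5 of the 6, all but Nr3c1, with Zbtb16 at ZT18 within counting error, against 31.9% of all genes and 44.7% of the abundant ones. The median log2 fold of the 6 was -0.53 for HF against RD at ZT6 and -0.49 at ZT18. Past 1.5-fold, Fkbp5 and Klf15 were lower at ZT6, where 11.6% of all genes and 0.696% of the abundant ones were, and none was higher, where 12.3% and 0.899% were. At ZT18, Fkbp5 and Sgk1 were lower, against 11.9% and 1.54%, and none was higher, against 15.7% and 2.56%. HF and RD also differed in the summed adipocyte markers, with 2356 and 1387 at ZT6, 3088 and 1324 at ZT18, and the liver markers differed at ZT18. All 5 red cell markers and all 4 neutrophil markers were at least 1.5-fold lower in HF than RD at both times, against the shares of lower genes just given. The red cell sums were 1575 in HF and 5429 in RD at ZT6, and 2094 in HF and 4377 in RD at ZT18. Of the neutrophil markers, Ngp and Camp had at most 4 reads in these libraries, so their folds rest on few reads. The part of these markers in the folds of the 6 genes was not tested.

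By time, the median log2 fold of the 6 was 0.57 for RD, 0.39 for HF and -0.10 for HF.NOB, the last 0.07 after length adjustment. In RD, Fkbp5, Tsc22d3 and Zbtb16 were at least 1.5-fold higher at ZT18, where 11.3% of all genes and 1.03% of the abundant ones were, and none was lower, where 12.2% and 0.526% were. In HF, Fkbp5 and Zbtb16 were, against 12.2% and 1.15%, and none was lower, against 10.2% and 0.543%. In HF.NOB, Zbtb16 and Nr3c1 were, against 23.4% and 17.4%, and none was lower, against 21.4% and 15.7%. With length adjustment Zbtb16 alone was, against 21.8% of all genes, and 12.2% were lower. The comparisons of 1 diet at 2 times and of 2 diets at 1 time share libraries, so they do not count as separate evidence.

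For HF.NOB against HF, the ZT6 comparison had 2 members past 1.5-fold in each direction. Fkbp5 and Tsc22d3 were higher, where 20.9% of all genes and 15.6% of the abundant ones were. Zbtb16 and Nr3c1 were lower, where 22.4% and 15.9% were. With length adjustment Fkbp5 and Tsc22d3 were still past the threshold, against 11.2% of all genes, and of the other pair only Zbtb16 was, against 21.3%. At ZT18 none of the 6 was past 1.5-fold in either direction, and the 6 log2 folds ran from -0.37 to 0.19. Of all genes, 9.47% were higher and 12.5% lower there. Of the abundant ones 0.39% and 0.322% were, so few genes of that level were past the threshold. HF.NOB against RD at ZT18 was below 0 for all 6 genes, where the median log2 fold over all genes tested was 0.003. The share of all genes below 0 was not counted. Fkbp5 at -1.54 (-1.62 to -1.45) and Sgk1 at -0.59 (-0.65 to -0.53) were past 1.5-fold. Of all genes 11.0% were lower and 11.5% higher, and of the abundant ones 0.797% and 1.15%. At ZT6, HF.NOB against RD was past 1.5-fold for Zbtb16 alone, at -1.53 (-1.68 to -1.38). There 23.0% of all genes were lower and 21.8% higher, and 16.2% and 14.1% of the abundant ones. With length adjustment Klf15 joined Zbtb16 at ZT6, at -0.71, against 21.9% of all genes lower and 13.0% higher. In the ZT6 HF.NOB library the summed red cell, neutrophil and adipocyte markers were also at their highest, with 445 for 4 neutrophil markers against 14.3 to 152 elsewhere. Camp of the neutrophil and Lep of the adipocyte markers peaked in other libraries. The fibroblast, macrophage and leukocyte, tendon and Schwann cell sums were highest there too. All 3 tendon and all 3 Schwann cell markers peaked there, but only 1 of 5 fibroblast and 2 of 6 macrophage and leukocyte markers did. The median log2 fold against ZT6 HF was -0.09 for fibroblast markers, or 0.36 after length adjustment. For macrophage and leukocyte markers it was -0.04, or -0.18. Against ZT6 HF, the neutrophil median log2 fold was 3.93, or 3.16 after length adjustment. The part of these markers in the folds was not tested.

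**Figure D2:**
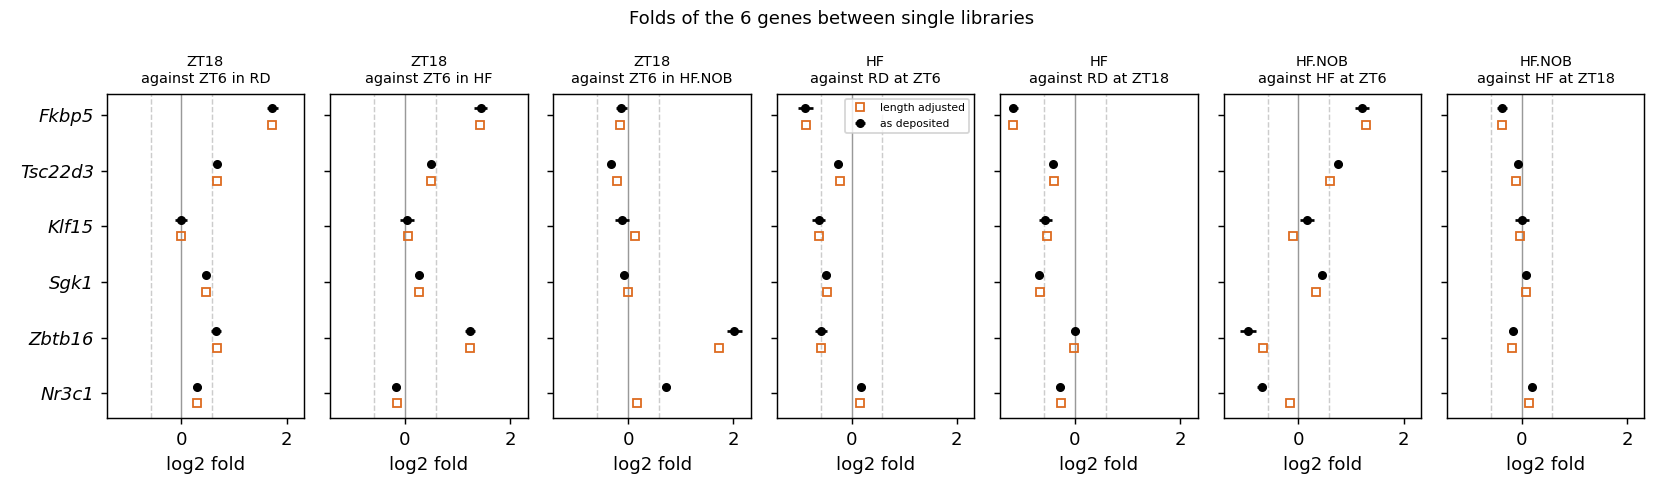
Log2 folds between single libraries (x axis) of the 6 genes in 7 comparisons. Black points are the deposited values with 95% counting intervals, open squares the folds after subtraction of the length trend, and dashed lines 1.5-fold. The 2 kinds of point nearly coincide except where ZT6 HF.NOB enters, as for Nr3c1 at -0.69 and -0.15.

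With 1 library per condition, a test was possible only in an additive fit, with diet and time as separate terms. There limma took the departure of the 6 libraries from additivity, on 2 residual degrees of freedom, as the error. It also drew the error of each gene toward a trend over all genes, so its SEs and p-values rest in part on other genes. In that fit none of the 6 genes passed an adjusted p of 0.05, where 0.00492% of 20311 genes did by time (1 gene, Dbp) and 0.0% did for HF against RD or for HF.NOB against HF. Before adjustment, 755 genes (3.72%) were under 0.05 by time, Zbtb16 and Fkbp5 among them, 847 (4.17%) for HF against RD, with Klf15, Sgk1 and Fkbp5, and 618 (3.04%) for HF.NOB against HF, with no member. By time, Zbtb16 had a log2 fold of 1.31 (SE 0.24, limma adjusted p = 0.77) and Fkbp5 1.01 (SE 0.33, limma adjusted p = 0.85). For HF against RD, Klf15 had -0.60 (SE 0.16), Sgk1 -0.58 (SE 0.19) and Fkbp5 -1.02 (SE 0.41), each with a limma adjusted p of 1. For HF.NOB against HF the 6 log2 folds ran from -0.56 for Zbtb16 to 0.42 for Fkbp5, with adjusted p-values from 0.78 to 0.90. On the recovered whole reads, edgeR called 2 genes by time (0.00985%) and 0 for either diet term (820 and 596 before adjustment), with no member among them. DESeq2 called 26 genes by time (0.197%), Zbtb16 among them (log2 fold 1.32, DESeq2 adjusted p = 0.000437), 29 for HF against RD (0.226%) with no member, and 0 for HF.NOB against HF (263 before adjustment).

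With length adjustment and every library kept, limma called no member. The lowest limma adjusted p of the 6 was then 0.20 by time, for Zbtb16, and 0.23 for HF against RD, for Klf15. Leaving out the ZT6 HF.NOB library, in contrast, changed the calls. The time and HF terms then come from the 4 RD and HF libraries on 1 residual degree of freedom, the lone HF.NOB library being assumed to vary like the others. Here too the error of each gene was drawn toward the trend over all genes. The SEs and adjusted p-values thus rest largely on other genes, and none measures the spread between mice. By time, Fkbp5 rose by a log2 fold of 1.59 (SE 0.086, limma adjusted p = 8.21e-06), Zbtb16 by 0.95 (SE 0.11, limma adjusted p = 0.00279) and Tsc22d3 by 0.59 (SE 0.073, limma adjusted p = 0.00331). Sgk1 missed the threshold at 0.37 (limma adjusted p = 0.0525), and Klf15 and Nr3c1 stood at 0.02 and 0.07. These were 3 of 6 members, against 0.645% of all genes higher and 1.49% of the abundant ones, and none was lower, against 0.32% and 0.763%. In HF against RD, Fkbp5 fell by 1.02 (limma adjusted p = 0.000238), Klf15 by 0.60 (limma adjusted p = 0.0025), Sgk1 by 0.58 (limma adjusted p = 0.00252) and Tsc22d3 by 0.34 (limma adjusted p = 0.034). Zbtb16 at -0.29 (limma adjusted p = 0.22) and Nr3c1 at -0.06 did not pass. These were 4 of 6 members, against 1.56% of all genes lower and 4.12% of the abundant ones, and none was higher, against 1.89% and 3.55%. As the 6 genes were chosen with earlier results of these data known, these member counts describe them and are not independent support. Without the ZT18 HF.NOB library instead, the time and HF terms rest on the same 4 libraries and gave the same folds. Without any 1 of the 4 RD and HF libraries, limma called no member by time or in HF against RD. The fold of Fkbp5 in HF against RD then lay between -0.48 (without ZT18 RD) and -1.56 (without ZT6 RD), and by time between 0.66 and 0.80. Between the same 2 fits, HF against RD went from -0.05 to -0.62 for Tsc22d3, from -0.39 to -0.76 for Sgk1 and from -0.78 to 0.19 for Zbtb16, while Klf15 lay between -0.54 and -0.65 over the 4.

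**Figure D3:**
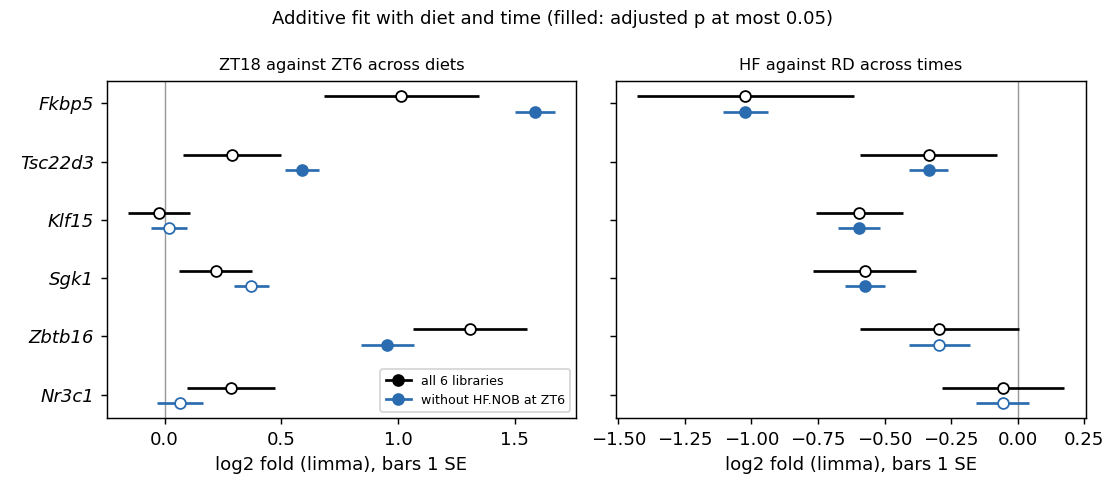
Log2 folds (x axis) of the additive limma fit for ZT18 against ZT6 (left) and HF against RD (right), with bars of 1 SE, in all 6 libraries (black) and without ZT6 HF.NOB (blue), where filled points passed an adjusted p of 0.05. The estimates for HF against RD are the same in both fits and their bars are shorter without that library, while Zbtb16 by time moves from 1.31 to 0.95.

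A further list of 28 genes known to respond to glucocorticoids in muscle or other tissues was read in the same way. The list was chosen with earlier results of these data known, so its counts are a description and not independent support. Of the 28, 16 had their highest value in ZT18 RD, against 14.0% of all genes tested. At ZT18 in RD, 12 were at least 1.5-fold higher and none lower, against 11.3% and 12.2% of all genes. In HF against RD, 9 were lower and 2 higher at ZT6, against 11.6% and 12.3%, and 15 were lower and 2 higher at ZT18, against 11.9% and 15.7%. The list's median log2 fold by time was 0.33 for RD, 0.46 for HF and -0.03 for HF.NOB (-0.24 after length adjustment), and it was -0.35 for HF against RD at ZT6 and -0.61 at ZT18. For HF.NOB against HF it was 0.39 at ZT6, or 0.49 after adjustment, and -0.18 at ZT18. In the fit of all 6 libraries no gene of the list passed limma's adjusted p, while DESeq2 called Arrdc2 lower and Angptl4 and Pdk4 higher for HF against RD. Without ZT6 HF.NOB, 9 passed higher and 1 lower by time, against 0.645% and 0.32% of all genes, and 15 lower and 2 higher in HF against RD, against 1.56% and 1.89%.

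Genes of muscle protein and amino acid loss were among them. Fbxo32 and Trim63, which encode the ubiquitin ligases atrogin-1 and MuRF1, passed limma both by time (0.49 and 0.57) and for HF against RD (-0.76 and -0.50) in the fit without ZT6 HF.NOB. Trim63 stood at 8111 in RD, 6270 in HF and 11333 with HF.NOB at ZT6 and at 13238, 8506 and 8469 at ZT18. Glul, glutamine synthetase, shared its highest and lowest libraries, at 7797, 4266 and 10377 at ZT6 and 16649, 9671 and 7252 at ZT18. Arrdc2, an arrestin-domain gene, stood at 845, 257 and 745 at ZT6 and at 2290, 639 and 458 at ZT18, so HF lay below RD by -1.72 and -1.84 on the log2 scale.

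Mt2, a metal-binding protein gene, stood at 234, 145 and 609 at ZT6 and at 2099, 206 and 132 at ZT18, and Mt1 moved with it. Both were higher at ZT18 in RD, by log2 folds of 3.16 and 2.38, and lower in HF.NOB, at -2.20 and -2.14, or -1.30 and -1.36 after length adjustment. Pik3r1, the regulatory subunit of PI3 kinase, was higher at ZT18 by 1.82 in RD and 0.82 in HF. Hif3a (mean 41.8) was higher by 1.39 in RD and lower in HF than RD by -0.97 and -1.83. Cebpd, a transcription factor, was higher in HF.NOB than HF at ZT6 by 1.74 and at -0.18 at ZT18. Irs2 and Klf9 were among the lowest in that ZT6 comparison, at -1.39 and -0.74 (-0.85 and -0.59 after length adjustment), and stood at 0.45 and 0.07 at ZT18. At ZT18, Mstn, which encodes myostatin, was highest in HF.NOB against HF, at 0.73, and the lowest were Angptl4, Mt1 and Ddit4, at -1.08, -0.80 and -0.74.

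A few genes of the list went the other way. Pdk4, the kinase that shuts down pyruvate dehydrogenase, stood at 11753 in RD, 22975 in HF and 21693 with HF.NOB at ZT6 and at 10259, 51473 and 39619 at ZT18. Angptl4, an inhibitor of lipoprotein lipase, stood at 68.1, 202 and 369 at ZT6 and at 45.3, 721 and 340 at ZT18. Both are known to be raised by fatty acids through PPAR receptors as well as by glucocorticoids. Both were the genes of the list that passed limma higher in HF than RD without ZT6 HF.NOB, at 1.65 and 2.76. Per1, a clock gene with a known response element, was below 0 by time in all 3 diets, at -0.25, -0.77 and -0.57, and Mstn passed lower by time, at -0.47.

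**Figure D4:**
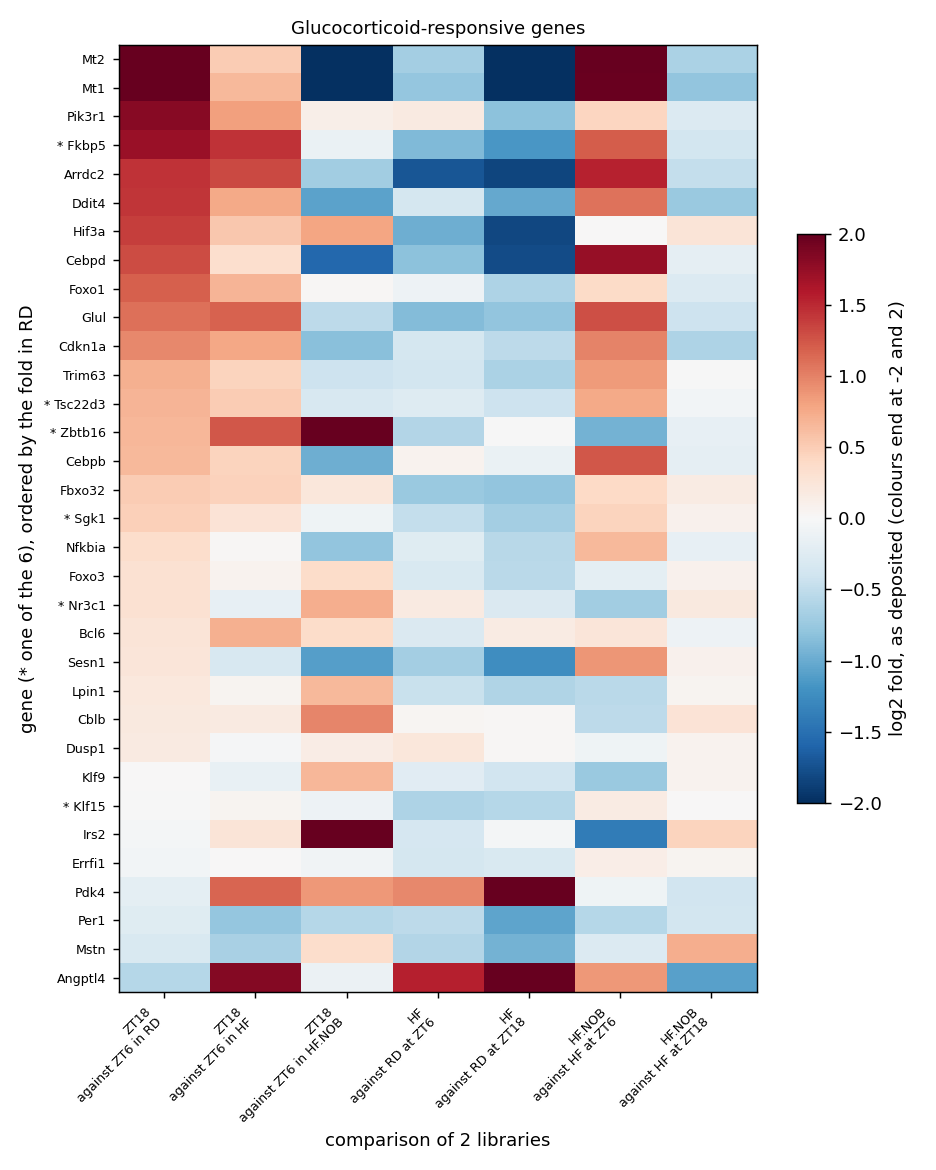
Log2 folds, as deposited, of the 6 genes (starred) and of the 28 further glucocorticoid-responsive genes but 1 (rows, ordered by the fold in RD) in 7 comparisons of 2 libraries (columns), red higher and blue lower, with colours ending at -2 and 2. The RD column by time is mostly red and the HF against RD column at ZT18 mostly blue, where 12 and 15 of the 28 are past 1.5-fold.

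Over the 6 libraries, Fkbp5 correlated with Sgk1 (Pearson r = 0.91) and Tsc22d3 (r = 0.91), and Tsc22d3 with Sgk1 (r = 0.82). Klf15 correlated with Sgk1 at 0.79 and Zbtb16 with Nr3c1 at 0.79, while Tsc22d3 and Nr3c1 gave -0.21. These are descriptions of 6 points that share their scaling, and the ZT6 HF.NOB library is 1 of them. Of 11766 genes averaging at least 50, the most like Fkbp5 were Tmem206 (r = 0.987), Prodh (0.984) and Glul (0.969). Those most like Tsc22d3 were Atoh8 (0.993), Safb (0.980) and Trim63 (0.980). Klf15 was closest to Hoxa13, Il12a and Igfals (0.995 to 0.988), and Sgk1 to Zbtb17, Pcbp3 and Serinc1 (0.993 to 0.985). Zbtb16 was closest to Fubp1, Aqp1 and Gm21955 (0.991 to 0.988), and Nr3c1 to Pign, Morc2a and Epb41l3 (0.996 to 0.995). Genes with r above 0.95 numbered 13 for Fkbp5, 16 for Tsc22d3, 14 for Klf15, 21 for Sgk1, 92 for Zbtb16 and 204 for Nr3c1.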

How the data were processed

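The authors extracted total RNA with Trizol from snap-frozen muscle and, per the labels and the methods, ran TopHat2 2.0.12 for alignment to mm10 and Cufflinks 2.2.1 for gene abundance. The deposited table gives 1 normalized signal per gene and library: read counts multiplied by 1 factor (0.956 to 1.33). How these scaled counts were derived, and whether by Cufflinks, is not given in the sources used. The column for ZT6 HF had a factor of 0.998.

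Names, positions and transcript lengths came from GENCODE M21 (GRCm38), which matched 99.4% of identifiers without their versions. Folds are differences of log2(value + 1) between single libraries, with exact Clopper-Pearson intervals from the recovered reads and no test. Genes with a mean of at least 1 (20311) were tested with limma 3.58.1 (diet plus time, trended variance, Benjamini-Hochberg), with edgeR 4.0.16 and DESeq2 1.42.0 (R 4.3.3) as alternatives. The limma and edgeR fits with every library kept were tested on simulated data, for the time term. DESeq2, the diet terms and the fits with a library left out were not. Length adjustment used 50 bins of transcript length.

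The members and lists were chosen with earlier results of these data known. All members, and the receptor, Klf15-linked and family genes, were named, except that 1 gene of the receptor list and 1 of the list of 28 enter the counts and medians and are not reported here by name. From the list of 28, those highest and lowest by mean time fold (5 each) or by diet fold (3 each) could be named, with the 3 genes most like each member. Fbxo32 was named after its values were seen, and the background of genes with a mean of at least 500 was added after seeing the data.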

Additional observations from a re-analysis of the deposited data

Results flagged for a closer look

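Beyond counting error, the effect of time had opposite signs between diets for 4 of the 6 genes. Klf15 also changed sign, within counting error. Of all genes tested, 13.3% were higher at ZT18 in all 3 diets and 14.3% lower in all 3, so a common sign was the exception. Log2 folds of ZT18 against ZT6 in RD, HF and HF.NOB were 1.73, 1.44 and -0.13 for Fkbp5, 0.67, 0.51 and -0.32 for Tsc22d3, and 0.47, 0.27 and -0.084 for Sgk1. For Nr3c1 they were 0.30, -0.16 and 0.72. With length adjustment the Sgk1 value in HF.NOB was 0.01, so the opposite sign of that gene was lost.

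The effect of HF.NOB against HF had opposite signs between ZT6 and ZT18 for 3 genes, at 1.20 and -0.37 for Fkbp5, 0.76 and -0.062 for Tsc22d3, and -0.69 and 0.19 for Nr3c1. For Nr3c1, HF against RD was 0.18 at ZT6 and -0.29 at ZT18. The share of all genes with such a change of sign between ZT6 and ZT18 was not counted. With 1 library per condition each of these differences was not tested.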

How the results depend on the processing

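With 1 library per condition, no result has a spread between animals, and low counts limit genes such as Il6, with 0 to 8 reads per library. No paired analysis was possible because the labels number no replicates. Under the alternatives, 20 single-library folds of the members moved beyond their counting intervals, all in comparisons with ZT6 HF.NOB, and 20 values of the additive fit gained a call. Those calls came only from leaving out either HF.NOB library, apart from Zbtb16 by time with DESeq2. Values of the fit that were not called could change sign with a library left out, as Zbtb16 in HF against RD did, from -0.29 to 0.19 without ZT6 RD. Sgk1 in HF.NOB against RD at ZT18 lies next to the 1.5-fold threshold, at -0.59 as deposited and -0.57, no longer past it, after length adjustment. Scaling by other factors moved the log2 fold of Fkbp5 by at most 0.08. At ZT6, Klf15 and Zbtb16 lie next to the 1.5-fold threshold in HF against RD, so 1 to 3 members were lower there over the scalings.

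Counts of genes past 1.5-fold are given in the order time in RD, HF and HF.NOB, HF against RD at ZT6 and ZT18, HF.NOB against HF at ZT6 and ZT18, and HF.NOB against RD at ZT6 and ZT18. With a mean of at least 10 they were 1448, 1364, 5412, 1516, 1998, 5224, 1250, 5327 and 1413. At a threshold of 2 they were 2696, 2346, 4338, 2579, 3177, 4090, 2327, 4801 and 2294. With a pseudocount of 5 those that moved were 2721 and 2433 by time in RD and HF, 2803 and 3184 for HF against RD, 2386 for HF.NOB against HF at ZT18 and 2311 for HF.NOB against RD at ZT18. Higher genes were 52.2% of those past the threshold by time in HF.NOB and 64.0% with length adjustment, 48.3% and 34.4% for HF.NOB against HF at ZT6, and 48.6% and 37.2% for HF.NOB against RD at ZT6.

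In the additive fit, the count of genes called by time was 0 with no filter, 2 with length adjustment, 2 with edgeR, 26 with DESeq2 and 0 to 196 when each library was left out in turn. For HF against RD it was 5 with length adjustment, 29 with DESeq2 and 0 to 700 with a library left out, and for HF.NOB against HF 0 to 5844 with a library left out. The highest counts came without ZT6 HF.NOB by time and for HF against RD, and without ZT18 HF.NOB for HF.NOB against HF, where the term rests on ZT6 HF.NOB alone.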

Other observations

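Of 11 genes that glucocorticoids are known to repress, the 3 with the highest means, named here after their values were seen, were Nfkb1, Icam1 and Vcam1, at 861, 180 and 130 scaled read counts. Their log2 folds for HF against RD at ZT6 and ZT18 were 0.08 and -0.21 for Nfkb1, -0.27 and 0.11 for Icam1, and 0.37 and 0.42 for Vcam1. Cxcl10, an interferon-induced chemokine, was higher in HF than RD at both times, at 96.8 against 29.4 scaled read counts at ZT6 and 47.3 against 14.7 at ZT18, and Mmp9, a matrix metalloproteinase, was lower, at 38.9 against 84.1 and 25.9 against 73.6. Without the ZT6 HF.NOB library these were the genes of the list that passed limma for HF against RD, at log2 folds of 1.65 (adjusted p = 0.014) and -1.28 (adjusted p = 0.0261), and none passed by time. Over the 11 genes the median log2 fold for HF against RD was 0.14 at ZT6 and 0.42 at ZT18, and by time -0.19 for RD, -0.21 for HF and -0.39 for HF.NOB. Neutrophil markers, which Mmp9 transcripts can accompany, summed to 100.1 in RD and 23.0 in HF at ZT6 and to 152 and 15.8 at ZT18, and their part in the Mmp9 values was not tested.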
